A study of Mus musculus with 18 samples.

Results

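The gene bodies described here are those of 6358 autosomal mouse genes that RefSeq annotates as long noncoding RNA (lncRNA), that span 3 kb or more and that share no base with a protein-coding gene. They were taken from 12408 autosomal lncRNA genes, of which 10006 reached 3 kb and 3648 of those overlapped a coding gene. No ChIP value entered the choice. The median span was 11402.5 bp and the longest was 1283931 bp, and 884 members shared bases with another member, so not all are independent stretches of genome. For 1688 members the gene table of the RNA libraries held a matching gene, and these were classed by their mean level at 0h in CPM (counts scaled to the library's total over genes): 85 stood at 1 CPM or more (called expressed below), 126 at 0.1 to 1 CPM (low) and 1477 under 0.1 CPM (silent). The other 4670 had no matched count and carry no class. The members beside the limits were Gm29666 at 0.965 CPM and A330035P11Rik at 1.00 CPM, and Gm28876 at 0.0998 CPM and 2610307P16Rik at 0.108 CPM.

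The cells were dermal fibroblasts from newborn male 129/S6 mice, immortalised with SV40, kept at passages 20-30, and lacking both macroH2A1 and macroH2A2, into which a doxycycline-inducible macroH2A2-GFP transgene had been put. MacroH2A2-GFP was pulled down with a GFP trap from native chromatin cut with micrococcal nuclease, with 1 library for each condition: 24h of 0.5 ug/ml doxycycline with 0.5 uM flavopiridol, an inhibitor of the elongation kinase CDK9, over the last 18 h; 6h and 24h of doxycycline after 10 days of 5 uM GSK126, an inhibitor of the H3K27 methyltransferase Ezh2; and 0h, 6h, 24h and 5d of doxycycline alone. H2A.Z was pulled down once, from wild-type primary fibroblasts of newborn female mice, which differ in genotype, sex and culture from the other cells. Poly(A) RNA was sequenced by strand in 3 libraries each at 0h, 6h and 24h. Every induced library had doxycycline and the transgene product together, so these cannot be told apart.

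MacroH2A is a histone H2A variant that carries a large globular macrodomain on its tail. It is known for broad domains over inactive chromatin and for scarcity over transcribed genes. LncRNAs are transcripts with little or no coding capacity, spliced and polyadenylated like mRNA in most cases, and some act at the chromatin where they are made. In fibroblasts the abundant ones include Malat1, which gathers in nuclear speckles, Neat1, the scaffold of paraspeckles, and hosts of small nucleolar RNAs and microRNAs.

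Depth over genes ran between 29338093 and 37793178 counts per RNA library, and replicates differed with a biological coefficient of variation of 2.69%. H2afy2, the macroH2A2 gene and so the check of the induction, stood at 10.7, 25.5 and 9.73 CPM at 0h, at 811, 823 and 791 CPM at 6h, and at 1748, 1715 and 1725 CPM at 24h. Of 10 fibroblast markers 8 were at 10 CPM or more at 0h, and no keratinocyte, endothelial, blood, melanocyte, Schwann, muscle or fat marker reached that level. The members took 0.211% to 0.212% of gene counts at 0h, 0.191% to 0.206% at 6h and 0.227% to 0.260% at 24h, and Malat1 alone made up 0.0883% to 0.0924%, 0.0698% to 0.0809% and 0.106% to 0.135% at these times. The region lists held 28857 regions on autosomes at 0h, covering 8.15% of them, and 43448 to 78902 regions, covering 13.6% to 15.8%, in the induced libraries.

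The expressed members started from promoters rich in the CG dinucleotide. The RefSeq table of GRCm38.p6 promoters runs from 250 bases before the start to 50 after it. The median number of CG was 20 in 69 expressed members, 11 in 109 low members and 4 in 1164 silent members. Over all 32851 promoters it was 7. In expressed, low and silent coding genes it was 22, 10 and 4, so this order was not particular to lncRNA members. Among the expressed members, 7 of those whose bodies were covered by macroH2A2-GFP at 50% or more at 5d had a promoter in the table. Their median was 6 CG (quartiles 3 and 19.5), against 20.5 in the 62 under 50%. Of the 7, 42.9% held 10 CG or more, against 82.3% of the 62. With only 7 promoters, no difference in CG is drawn here. The promoters of 4 members are shown as examples of unlike coverage in the results below, where other members were more extreme. Oip5os1 and Mir100hg were covered at 6h and little at 24h and 5d. U90926 and Wincr1 were covered in all 4 libraries of the induction course. CG is in capitals.
Oip5os1: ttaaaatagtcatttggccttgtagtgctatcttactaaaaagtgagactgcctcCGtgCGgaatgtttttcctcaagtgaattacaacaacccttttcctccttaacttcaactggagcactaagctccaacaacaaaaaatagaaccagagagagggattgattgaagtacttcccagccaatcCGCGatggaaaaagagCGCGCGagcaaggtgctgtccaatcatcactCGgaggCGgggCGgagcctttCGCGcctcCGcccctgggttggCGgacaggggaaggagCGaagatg
Mir100hg: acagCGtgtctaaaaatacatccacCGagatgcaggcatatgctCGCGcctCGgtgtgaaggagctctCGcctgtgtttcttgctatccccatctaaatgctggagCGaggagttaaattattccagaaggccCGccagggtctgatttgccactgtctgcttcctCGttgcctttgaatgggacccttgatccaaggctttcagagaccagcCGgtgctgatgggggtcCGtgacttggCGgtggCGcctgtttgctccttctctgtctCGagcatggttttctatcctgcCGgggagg
U90926: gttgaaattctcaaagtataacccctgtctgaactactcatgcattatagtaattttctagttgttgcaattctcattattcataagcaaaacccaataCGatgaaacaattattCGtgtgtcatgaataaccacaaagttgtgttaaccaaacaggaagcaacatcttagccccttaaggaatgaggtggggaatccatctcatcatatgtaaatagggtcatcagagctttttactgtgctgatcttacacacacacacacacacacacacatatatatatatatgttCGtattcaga
Wincr1: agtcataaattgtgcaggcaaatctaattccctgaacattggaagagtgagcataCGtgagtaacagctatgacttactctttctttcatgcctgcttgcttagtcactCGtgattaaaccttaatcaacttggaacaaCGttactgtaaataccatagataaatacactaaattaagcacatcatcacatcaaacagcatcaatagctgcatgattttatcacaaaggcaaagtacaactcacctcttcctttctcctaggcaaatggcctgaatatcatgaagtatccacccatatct
These lie at chr2:119594046-119594345 (plus strand), chr9:41376276-41376575 (plus strand), chr5:92215359-92215658 (minus strand) and chr4:89050057-89050356 (plus strand), each printed 5′ to 3′ along the gene. The Oip5os1 and Mir100hg windows each hold 15 CG, at 50.0% and 55.0% G+C, whereas those of U90926 and Wincr1 each hold 3 CG, at 35.7% and 37.7% G+C. TATAAA and TGACTCA, the letters of a TATA box and of an AP-1 site, were looked for on both strands. Neither was in these 4 windows, while TATAAA was in 13.6% and TGACTCA in 5.20% of all promoters of the table. TGACTCA was in 28.6% of the 7 promoters of expressed members covered at 50% or more at 5d, and in 4.84% of the 62 under 50%. With only 7 promoters a single one moves the first share widely, so no difference is drawn from these shares.

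Coverage was measured as the percentage of a gene body, without 1 kb at each end, that lay inside regions the authors had called with SICER (200-bp windows, gaps of up to 800 bp). With 1 library per condition there is no replicate check of any coverage value, so differences below describe these libraries and carry no test. The sequencing depth behind the region lists is unknown. The running numbers of the lists skip in places, mostly on chromosomes 8, 15 and 17: between 1579 and 5573 numbers were missing per list, and 344 to 976 members touched such a place in a given library, where coverage may be listed too low.

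Expressed lncRNA bodies were covered broadly at 6h and much less at later times. Their mean coverage over 0h, 6h, 24h and 5d was 8.27%, 37.0%, 16.6% and 10.6% (n = 85 members). Coverage was at least 80% in 3, 20, 6 and 5 of them at these times, and it was 0 in 66, 32, 57 and 68. The low members stood at 21.4%, 45.4%, 41.1% and 30.3% (n = 126), so they differed less between 6h and 24h, and the order of these times turned for spans of 10 kb or more, where 24h was higher by 1.18 points. The silent members went the other way between these times, with 14.3%, 19.7%, 27.4% and 26.3% (n = 1477). Members at or above 80% coverage numbered 96, 131, 247 and 224 among the silent ones. The 4670 members without a matched count had a similar order, at 23.0%, 30.2% and 27.8% over 6h, 24h and 5d.

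Beside the bodies of protein-coding genes, the expressed and silent lncRNA classes had the same order of times at a higher level. Expressed coding genes (n = 10004) averaged 1.95%, 20.7%, 4.58% and 2.64% over 0h, 6h, 24h and 5d, and silent coding genes (n = 5912) averaged 8.78%, 10.5%, 18.1% and 16.2%. Low coding genes (n = 1291) averaged 30.5% at 24h and 24.8% at 6h. The order of these times turned with the span in both kinds of low gene: at 3 to 10 kb the mean was lower at 24h than at 6h, with 38.1% at 24h and 48.4% at 6h for lncRNA and 25.4% at 24h and 27.5% at 6h for coding genes, and above 10 kb it was higher at 24h in both. Among expressed genes, lncRNA bodies were also the more covered kind within ranges of level. At 1 to 10 CPM, 60 lncRNA members averaged 38.9% at 6h, 19.8% at 24h and 13.1% at 5d, against 21.0%, 14.4% and 8.91% in 1855 coding genes. At 10 CPM or more, 25 lncRNA members averaged 32.4%, 8.72% and 4.61%, against 20.7%, 2.34% and 1.21% in 8149 coding genes. The levels were not alike within either range. At 1 to 10 CPM the median was 2.40 CPM for lncRNA and 4.22 CPM for coding genes. At 10 CPM or more it was 20.5 CPM for lncRNA and 54.0 CPM for coding genes. CPM is also not per length.

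**Figure D1:**
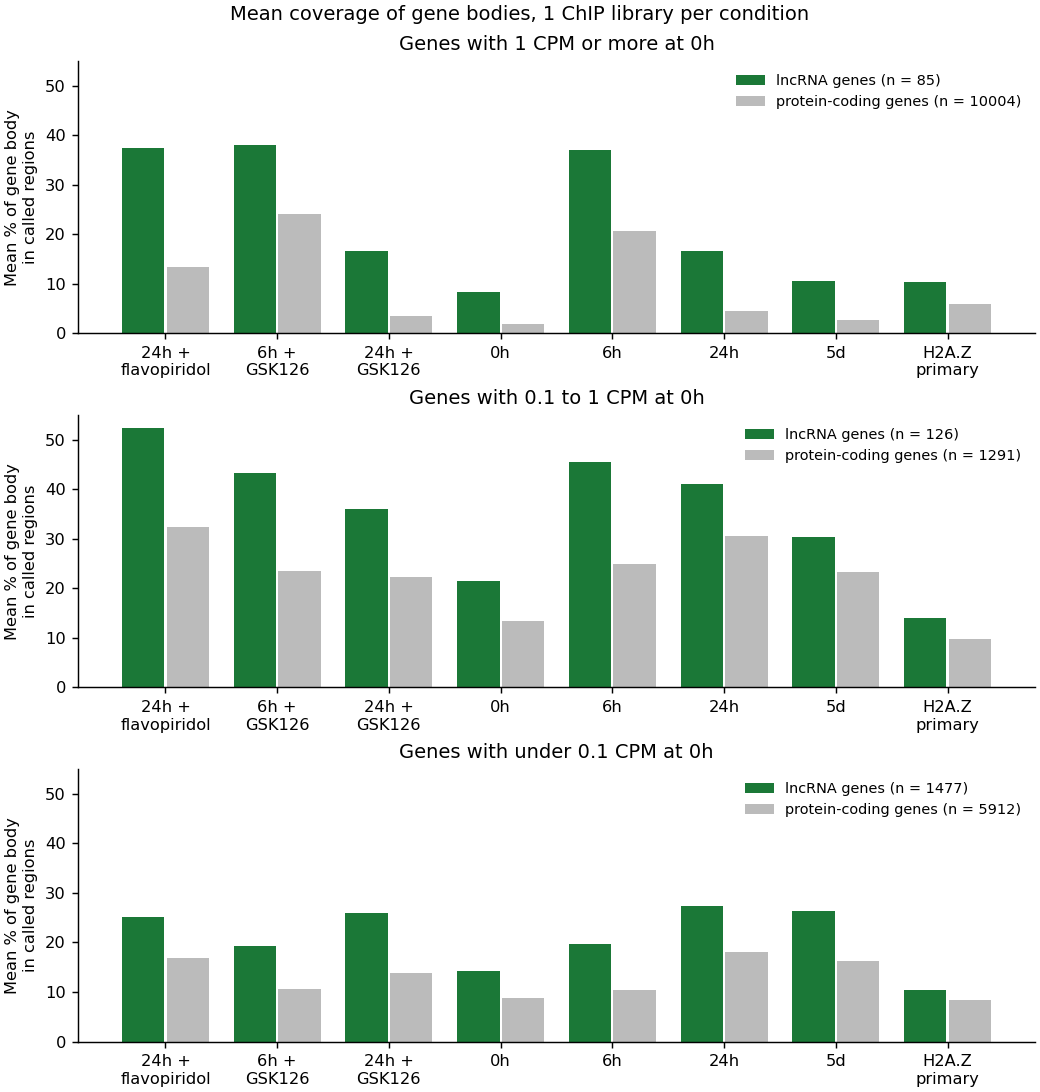
Mean percentage of the gene body inside called regions (y axis) in each ChIP library (x axis), for lncRNA genes (green) and protein-coding genes (grey), in 3 panels by RNA level at 0h. Each bar is a mean over genes of 1 library, with no replicate. Expressed lncRNA genes stood at 16.6% at 24h and 37.0% at 6h, and silent ones at 27.4% at 24h and 19.7% at 6h.

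Counted member by member with a step of 20 points, coverage at 6h was above 0h in 35 of 85 expressed members and below it in 0, where 21.6% of all 24000 genes measured were above and 2.6% below. At 24h it was below 6h in 31 expressed members and above it in 2, against 15% and 10.4% of all genes. Among silent members 48 were below and 265 above. At 5d it was below 6h in 34 expressed members and above it in 1 (17.7% and 8.94% of all genes), and below 24h in 12 and above it in 1 (7.09% and 3.08%). Across the 19 autosomes, the mean of expressed members at 24h lay below that at 6h on 16 and above it on 1, while the mean of silent members lay above it on 17.

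**Figure D2:**
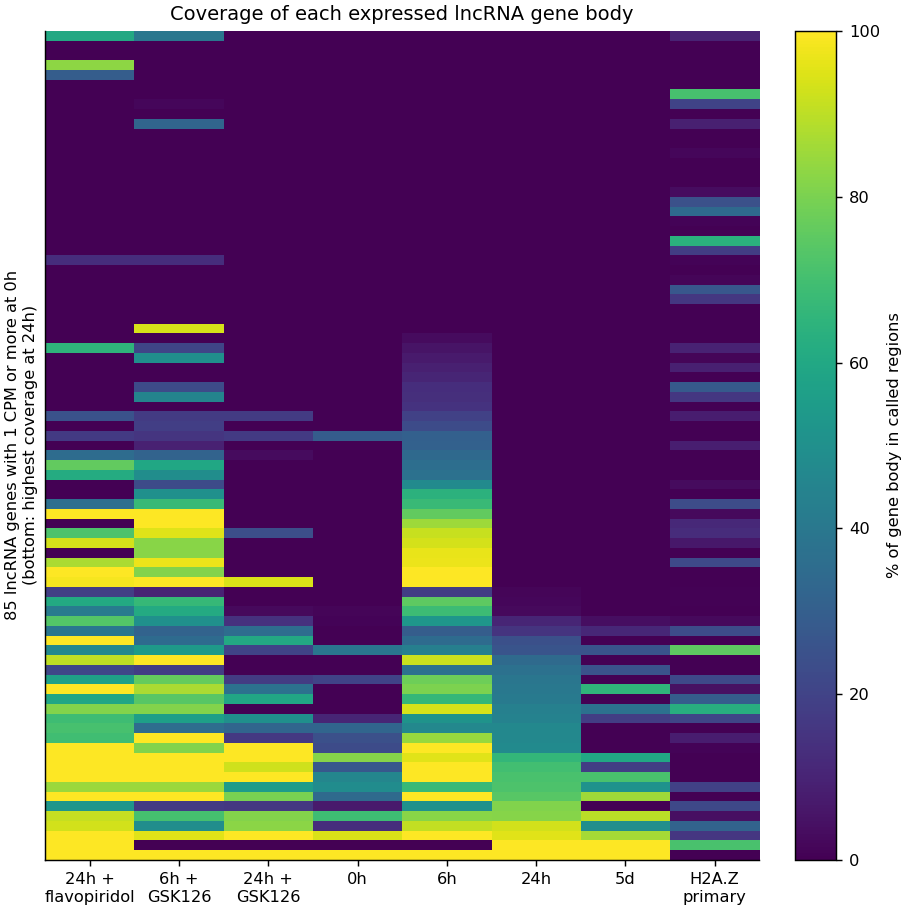
Percentage of the gene body inside called regions (colour) for each of the 85 lncRNA genes at 1 CPM or more (rows, highest 24h coverage at the bottom) in the 8 ChIP libraries (columns). Covered bodies at 6h outnumber those at 24h and 5d: 20 rows reach 80% at 6h, 6 at 24h and 5 at 5d.

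The most abundant members, 5 in all, were at 100 CPM or more at 0h. Mir100hg (chr9:41376526-41615185), which holds the hairpins of Mir100, Mirlet7a-2 and Mir125b-1 and stood at 152 CPM, was covered at 0.845%, 52.7%, 10.3% and 3.72% over 0h, 6h, 24h and 5d. Neat1 (chr19:5824708-5845480, 122 CPM) was covered at 36.2% at 6h and at 0 at the other 3 times. Oip5os1 (chr2:119594296-119600746, 114 CPM), known as Cyrano and for directing the decay of the microRNA miR-7, was covered at 85.4% at 6h and at 0 at the other times. All 3 therefore had their highest coverage of the course at 6h. Malat1 (chr19:5795690-5802672), at 897 CPM the most abundant member, was covered at 10.3% at 6h and was at 0 in the other 6 macroH2A2-GFP libraries. Tug1 (chr11:3639785-3648814, 128 CPM) was at 0 in all of them but 6h with GSK126, where it was covered at 93.9%.

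Between 6h and 24h, 7 expressed, 4 low and 9 silent members differed widely, being at 20% or less at 24h and at 80% or more at 6h, as were 1.97% of all genes. The 7 expressed ones were Oip5os1, BC002059, Snhg18, 2810001G20Rik, Gm20544, Bvht and A430046D13Rik. Their coverage at 6h lay between 85.4% (Oip5os1) and 100% (Gm20544 and A430046D13Rik), and all 7 were at 0 at 0h, 24h and 5d. Snhg18, which hosts small nucleolar RNAs, and BC002059 lie where running numbers are missing at 0h and 24h, and BC002059 also at 5d, so their 0 at these times is less firm. Pvt1 (chr15:62037986-62260215), the neighbour of Myc, was covered at 1.82% at 24h and 75.2% at 6h, again with numbers missing at 0h and 6h. Morrbid, named for its neighbour, the cell death gene Bcl2l11, was covered at 34.0% at 6h and 0 at 0h, 24h and 5d.

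A few expressed members were covered throughout, already at 0h without doxycycline, and 9 had 50% or more at 5d. What the regions called at 0h stand for was not tested. Several of the 9 lie on chromosomes 8 and 17. On these and chromosome 15, expressed members averaged 26.2% at 0h, against 4.42% on the other autosomes. 5430421F17Rik was at 100% in all 7 macroH2A2-GFP libraries, at a level of 1.03 CPM. U90926 (chr5:92209895-92215408, 13.4 CPM) was covered at 34.4%, 100%, 74.2% and 85.6% over 0h, 6h, 24h and 5d. Wincr1 (chr4:89050307-89084610, 8.32 CPM), described as a Wnt-induced transcript of dermal fibroblasts, was covered at 81.8%, 95.7%, 66.3% and 60.1%. These 2 were the members of the 9 above 5 CPM. A330074K22Rik (chr8:120204434-120228230, 2.69 CPM) was covered at 94.5%, 100%, 95.4% and 86.4%, and 3300005D01Rik (chr17:5798657-5803242, 2.55 CPM) at 45.9%, 100%, 71.2% and 71.2%. Cerox1 (chr17:25570811-25575043, 1.04 CPM), a regulator of mitochondrial complex I transcripts, had another order: it was at 0 at 0h and 6h and at 100% at 24h and 5d. It was the 1 expressed member of 80% or more at 24h and 20% or less at 6h, where 33 silent members and 1.27% of all genes did so.

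**Figure D3:**
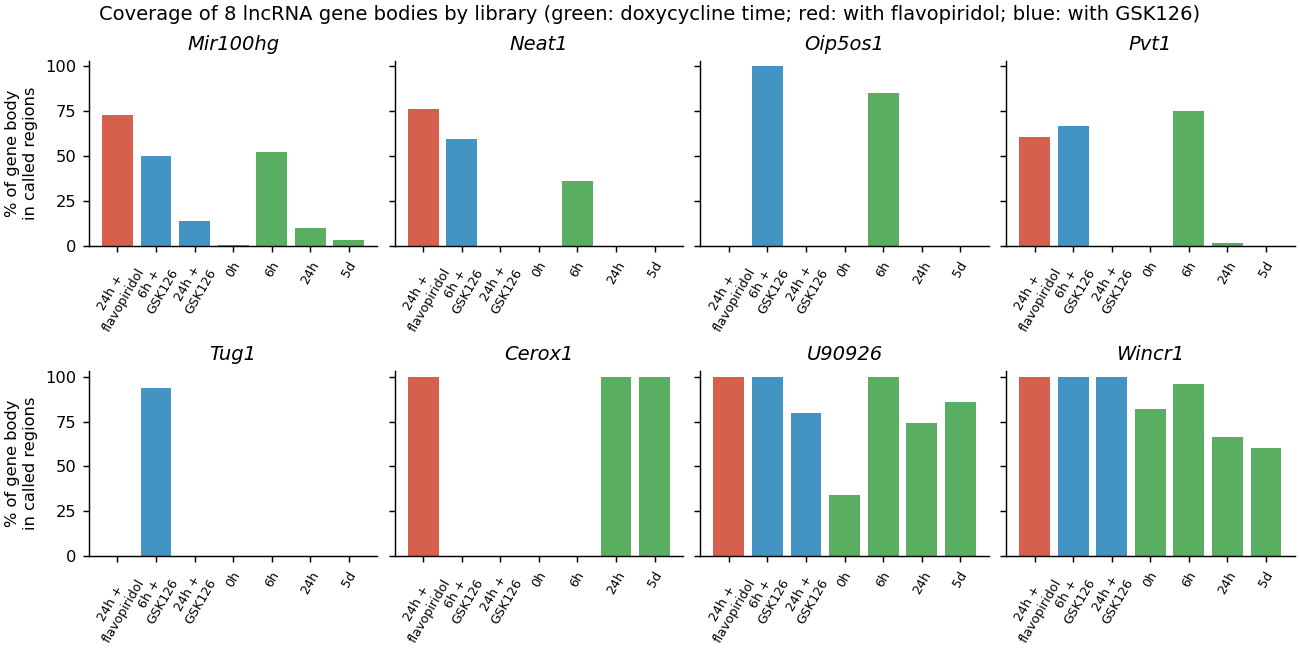
Percentage of the gene body inside called regions (y axis) for 8 named lncRNA genes in the 7 macroH2A2-GFP libraries (x axis; red with flavopiridol, blue with GSK126, green doxycycline alone). Among the green bars, Mir100hg, Neat1, Oip5os1 and Pvt1 peak at 6h, at 36.2% to 85.4%. U90926 and Wincr1 have green bars at every time and Cerox1 at 24h and 5d only. Cerox1 is also at 100% with flavopiridol, and at 0 with GSK126 at 6h and 24h. Running numbers are missing at Pvt1 in the 0h, 6h, 24h with flavopiridol and 6h with GSK126 libraries.

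Among silent members, 89 were at 80% or more at 6h, 24h and 5d, as were 18 low and 3 expressed members and 2.85% of all genes. The longest of the 89 was 4930412B13Rik (chr2:117821928-117909136, 0.0193 CPM), covered at 93.4%, 90.4%, 96.2% and 97.2% over 0h, 6h, 24h and 5d. Gm13497 (chr2:51241831-51295945), with 0 counts at 0h, was covered at 70.2%, 81.3%, 91.3% and 94.6%. Gm3331 (chr9:32783146-32834460), near Ets1 and also at 0, was covered at 52.8%, 83.8%, 95.9% and 95.5%. Platr4, associated with pluripotency, had 0 counts at 0h and was at 0 at 0h and at 100% in the other 6 macroH2A2-GFP libraries. At the other end, 24 expressed, 24 low and 590 silent members were at 0 in all 7 of these libraries, against 36.5% of all genes, which is 8770 of 24000.

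Silent members of developmental loci ranged from no coverage to full coverage. Of a list of 34 lncRNAs of developmental loci, 12 were members, 10 of them silent. Hotair, in the Hoxc cluster, was covered at 100%, 46.9%, 100% and 100% over 0h, 6h, 24h and 5d. Hottip, at the Hoxa13 end of the Hoxa cluster, was at 49.6%, 0, 35.5% and 100%, and Fendrr, beside Foxf1, was at 40.1%, 26.3%, 50.4% and 72.1%. All 3 were lower at 6h than at 5d. Pantr1, beside Pou3f3, and Haglr, in the Hoxd cluster, were silent too and stood at 0 in all 7 macroH2A2-GFP libraries. Trp53cor1 (lincRNA-p21, beside Cdkn1a), a low member at 0.783 CPM, was covered at 72.3%, 100%, 87.1% and 51.5%, with numbers missing at 0h and 5d. Of 15 members among 31 listed hosts of small RNAs, Snhg15, Snhg16, Mir205hg, Mir124-2hg, Snhg4 and Snhg7 were at 0 in all 7. Over all genes 36.5% were at 0 in these libraries, so no trait of such hosts is drawn from this.

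Silent members were covered more where the nearest coding gene was expressed. At 5 to 50 kb from a coding gene, 306 silent members beside one of 1 CPM or more averaged 40.9% at 24h, against 19.8% in 195 beside one under 0.1 CPM. At 50 kb or more the mean was 28.9% beside an expressed gene (n = 363) and 10.1% beside a silent one (n = 210). Expressed members lay close to coding genes: 36 of 85 (42.4%) were within 1 kb, against 156 of 1477 silent ones (10.6%), and the median distance was 2.855 kb for expressed and 35.3 kb for silent members. Over the 472 members with counts at 0h, Spearman's rho between CPM and coverage was -0.017 at 6h, -0.24 at 24h and -0.27 at 5d. All these members share the same 0h RNA libraries and differ in span and surroundings.

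Chromosomes 8, 15 and 17 stood apart. There, 15 expressed members averaged 26.2%, 72.8%, 38.6% and 29.8% over 0h, 6h, 24h and 5d, and 154 silent members 29.9%, 31.4%, 41.8% and 44.0%. On the other autosomes 70 expressed members averaged 4.42%, 29.4%, 11.8% and 6.45%, and 1323 silent members 12.5%, 18.4%, 25.7% and 24.2%. Both sets of chromosomes had the same order of 6h and 24h in both classes. Single chromosomes did not all follow the pooled means. Silent members averaged 46.8% at 24h on chromosome 10, against 39.5% on chromosome 8 and 37.5% on chromosome 17. The 4 expressed members on chromosome 15 averaged 9.12% at 24h and 0 at 5d. The share of expressed members at 80% or more at 5d was 5.88% on all autosomes and 1.43% without these 3, since 4 of the 5 such members lie on them. The part of the missing running numbers in these values was not tested.

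With flavopiridol, given from 6h to 24h of doxycycline, expressed lncRNA bodies were more covered than without it. They averaged 37.4% at 24h with flavopiridol, against 16.6% at 24h without it, and 21 of them were at 80% or more, against 6. Coverage with flavopiridol was higher by 20 points or more in 32 of 85 and lower in 1, where 10.9% of all genes were higher and 5.55% lower. Low members averaged 52.3% with flavopiridol, against 41.1% without it. For silent members the mean was 25.2% with flavopiridol and 27.4% without it, with 88 higher and 156 lower. Set against 6h, the expressed members with flavopiridol were higher in 11 and lower in 9 (11.7% and 11.5% of all genes), with a mean of 37.4% with flavopiridol and 37.0% at 6h.

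Several of the members concerned were also covered at 6h. Neat1 was covered at 76.1% with flavopiridol, against 0 at 24h without it. Mir100hg was covered at 73.1%, against 10.3%. In all, 6 expressed, 2 low and 15 silent members were at 80% or more with flavopiridol and at 20% or less without it, as were 1.35% of all genes. The 6 expressed ones were B230354K17Rik, Snhg18, 2810001G20Rik, Gm20544, 2010001A14Rik and A430046D13Rik, at 83.2% to 100%, against 0 in each at 24h, where running numbers are missing at the first and second of them. Of these 6, 5 were also covered at 6h, at 76.2% to 100%, while 2010001A14Rik was at 0 there. Not all members covered at 6h were covered with flavopiridol: Oip5os1 and BC002059 were at 0 in that library, with numbers missing there at BC002059.

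With GSK126 the class means of expressed members were close to those without it. Expressed members averaged 38.1% at 6h with GSK126, against 37.0% without, and 16.6% at 24h with it, against 16.6% without. With a step of 20 points, 7 of 85 were higher and 4 lower at 6h (8.15% and 6.28% of all genes), and 8 were higher and 7 lower at 24h (3.13% and 7.67%). Under GSK126 itself, 31 of 85 were lower at 24h than at 6h and 2 were higher (18.1% and 7.88% of all genes). Low members averaged 35.9% at 24h with GSK126, against 41.1% without it, and silent members 25.9%, against 27.4%.

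Single members differed far more, in both directions. By 60 points or more, 101 of 6358 members were higher and 100 lower at 6h with GSK126 than without it (1.12% and 0.887% of all genes), and 121 were higher and 174 lower at 24h (0.642% and 1.69%). Miat (chr5:112213228-112228948), a nuclear lncRNA at 10.7 CPM, was covered at 16.0% at 24h with GSK126, against 81.2% without it, and at 17.1% at 6h with it, against 50.6%. Hotair was covered at 7.37% at 24h with GSK126, against 100% without it, and at 100% at 6h with it, against 46.9%. Gm35179, near Eya4, was covered at 79.6% at 6h with GSK126, against 0, and at 83.4% at 24h with it, against 14.4%. Wincr1 was covered at 100% at 24h with GSK126, against 66.3%.

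The flanks separated the classes further, though what the flanks held was not alike. Within 1 kb of a coding gene lay 42.4% of expressed members, against 10.6% of silent ones. The part of such neighbours in the values below was not tested. Expressed bodies were less covered than the 10 kb on each side by 12.1 points at 24h, with means of 16.6% in the body and 28.7% in the flanks, and 41 of 85 bodies were below and 15 above their flanks. Expressed coding genes had a wider gap, of -18.9 points, with 5860 of 10004 below and 624 above. At 5d the body of expressed lncRNA members was lower by 9.16 points and at 0h by 7.88 points, whereas at 6h the difference was -1.94 points and with flavopiridol it was 1.39 points, against -11.5 points at 6h and -17.1 points with flavopiridol in expressed coding genes. The difference at 6h changed sign, to 1.75 points, when only regions at or above the median score of the list were used. In silent members the mean of the body was above that of the flanks by 0.95 to 2.39 points in every macroH2A2-GFP library. By member, more bodies were below than above their flanks at 0h (312 and 303), 6h (421 and 388) and 6h with GSK126 (505 and 414). In the other macroH2A2-GFP libraries more were above. Low members had their widest gap with flavopiridol, at 52.3% in the body and 42.0% in the flanks.

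Within 1 kb of the annotated start, expressed members held little macroH2A2-GFP and much H2A.Z. For the 71 with a known strand the macroH2A2-GFP mean was 16.9% at 6h, 11.1% at 24h and 6.42% at 5d, each below the body mean. H2A.Z in wild-type primary cells covered 73.9% of the start window in these members, 59.5% in 109 low members and 20.2% in 1205 silent ones, while it covered 10.4% of the bodies of both expressed and silent members. Exceptions among the named expressed members included U90926 and 3300005D01Rik, whose start windows were at 0 for H2A.Z and at 87.2% or more for macroH2A2-GFP in all 7 libraries. Gm12059 was at 0 for H2A.Z too, with its start window at 0, 100%, 100% and 0 for macroH2A2-GFP over 0h, 6h, 24h and 5d. Wincr1 was also at 0 for H2A.Z, and its start window stood at 0, 100%, 34.7% and 0 for macroH2A2-GFP over 0h, 6h, 24h and 5d.

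**Figure D4:**
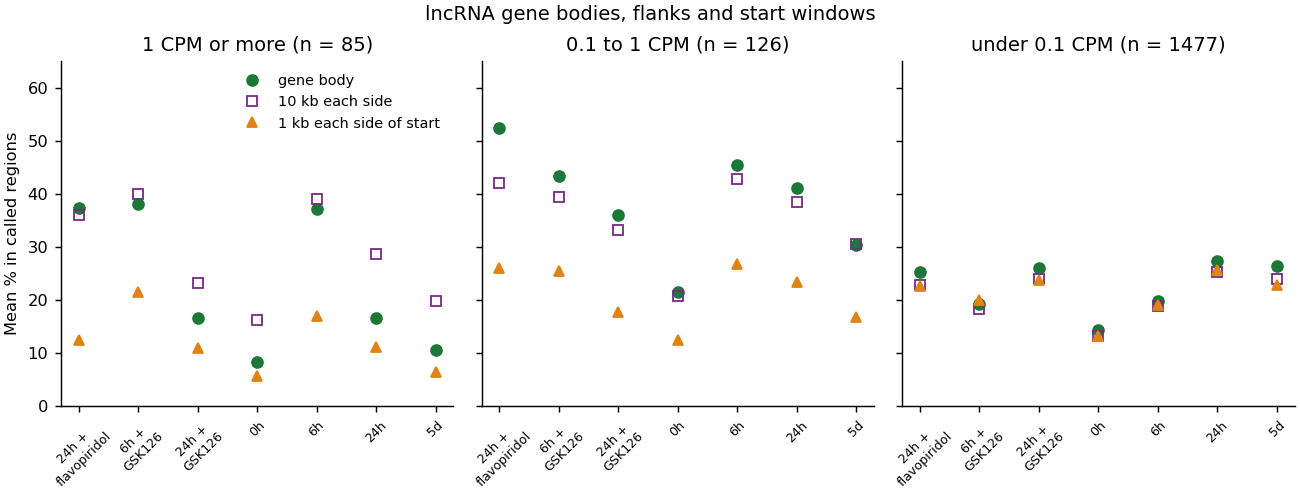
Mean percentage inside called regions (y axis) of lncRNA gene bodies (circles), of 10 kb on each side (squares) and of 1 kb on each side of the start (triangles) in the 7 macroH2A2-GFP libraries (x axis), by RNA level at 0h. Start windows use the members with a known strand. In members of 1 CPM or more the body lies below the flanks at 24h, at 16.6% against 28.7% in the flanks, and near them with flavopiridol, at 37.4% against 36.0% in the flanks.

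In the RNA libraries, 1082 of the 1688 members had 0 counts in all 9. The filter on low counts left 159 members, which are all 85 expressed and 74 of the 126 low ones and no silent one, so nothing was tested for members that macroH2A2-GFP covered while silent. Tests were edgeR's quasi-likelihood test with Benjamini-Hochberg adjustment over all 13785 genes tested, called at an adjusted p under 0.05, and levels below are CPM normalised by TMM. Replicates are separate libraries, and nothing in the sources used here says that they came from separate cultures, so p-values measure the spread between these libraries. In bulk RNA, fewer cells making a transcript and less of it per cell cannot be told apart.

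More lncRNA members differed from 0h at 6h than at 24h. At 6h, 34 of 159 members (21.4%) differed from 0h, 22 higher and 12 lower, where 39% of all genes tested were called, 20.8% higher and 18.2% lower. At 24h, 4 (2.52%) differed from 0h, all 4 higher and 0 lower, where 7.04% of all genes were called, 4.17% higher and 2.87% lower. Without adjustment 18 members had a p under 0.05 in that comparison, and DESeq2 called 2. Between 24h and 6h, 37 members (23.3%) differed, 18 higher and 19 lower, where 36.1% of all genes were called, 17.4% higher and 18.8% lower. The comparisons share libraries, so their values below are given side by side. Median log2 changes over the 159 were 0.03 for 6h, 0.02 for 24h and -0.02 for 24h against 6h. Called members had a median size of 0.44, 0.35 and 0.51 on the log2 scale, against 0.20, 0.16 and 0.20 for all called genes. The levels are not alike: expressed lncRNA members had a median of 3.69 CPM at 0h, against 39.3 CPM for expressed coding genes. At low counts only larger changes reach a call. The median called size at 6h was 0.39 in expressed and 0.89 in low members. Neither sizes nor shares called were compared at like level.

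The largest increase at 6h among named members was that of C430002N11Rik (chr9:96765562-96774397), at 2.04, 1.52 and 1.94 CPM at 6h, against 0.770, 0.999 and 0.625 CPM at 0h. It rose by 1.20 on the log2 scale (SE 0.23, edgeR adjusted p = 0.000112) and stood at 0.622, 0.953 and 0.534 CPM at 24h, which overlaps 0h. U90926 was at 22.8, 21.1 and 22.6 CPM at 6h, against 12.2, 14.6 and 13.1 CPM at 0h, a rise of 0.74 (SE 0.071, edgeR adjusted p = 1.78e-09), and at 24h it was lower than at 6h by a log2 change of -0.52 (edgeR adjusted p = 8.02e-07). Snhg15, a host of small nucleolar RNAs, was at 30.2, 27.8 and 26.9 CPM at 6h, against 21.1, 19.8 and 20.8 CPM at 0h, a rise of 0.46 (edgeR adjusted p = 9e-08). For each of these 3 the 6h libraries lay wholly above the 0h libraries.

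Wincr1 rose at both times. It was at 12.5, 14.2 and 12.8 CPM at 6h, against 9.21, 7.72 and 7.74 CPM at 0h (log2 change 0.68, edgeR adjusted p = 2.57e-07). At 24h it was at 9.38, 11.2 and 11.1 CPM (0.35 against 0h, edgeR adjusted p = 0.011). That second call was lost without 0h replicate 2 or 3 or 24h replicate 2 or 3, with adjusted p of 0.0552 to 0.0809. Gm6634 rose by 0.47 at 6h (edgeR adjusted p = 0.000431) and 0.35 at 24h (edgeR adjusted p = 0.0338), and Snhg15 by 0.18 at 24h (edgeR adjusted p = 0.0421). For Gm6634 the 24h call was lost without any of 4 libraries, at adjusted p of 0.0940 to 0.138, and for Snhg15 without any of 5, at 0.0565 to 0.240. These were 0h replicates 1 and 2 and 24h replicates 2 and 3 for both members, and also 0h replicate 3 for Snhg15. 3300005D01Rik rose by 0.65 at 6h (edgeR adjusted p = 0.000708). Gm20544 rose by 0.42 (edgeR adjusted p = 0.026), a call lost without 0h replicate 2 or 3 or 6h replicate 1 or 2.

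Malat1 fell at 6h and rose at 24h. It was at 708, 788 and 823 CPM at 6h, against 872, 914 and 872 CPM at 0h (log2 change -0.20, edgeR adjusted p = 0.00283), and at 1347, 1251 and 1061 CPM at 24h (0.46 against 0h, edgeR adjusted p = 4.33e-07). The 3 times do not overlap. The share of counts outside genes also differed, at 5.97% to 6.05% at 0h, 5.68% to 6.23% at 6h and 6.35% to 7.00% at 24h. The Malat1 call at 6h was lost without 6h replicate 1, at an adjusted p of 0.0536, and with DESeq2, at 0.0956. Lockd, downstream of the cell cycle inhibitor gene Cdkn1b, was at 4.64, 4.35 and 4.12 CPM at 6h, against 5.90, 5.72 and 5.80 CPM at 0h (-0.41, edgeR adjusted p = 0.00185). At 24h it was at 6.63, 7.39 and 7.18 CPM, a rise of 0.68 against 6h (edgeR adjusted p = 2.48e-06). Oip5os1 fell a little, to 98.9, 101 and 97.7 CPM at 6h, against 117, 110 and 112 CPM at 0h (-0.19, edgeR adjusted p = 1.18e-05).

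A330074K22Rik, covered in all libraries, fell to 1.61, 1.70 and 1.37 CPM at 6h, against 2.97, 2.33 and 2.68 CPM at 0h (-0.76, edgeR adjusted p = 0.000513), and stood at 2.84, 2.69 and 2.20 CPM at 24h. Among named members 9630013D21Rik fell by 0.98 (edgeR adjusted p = 0.00373) and Gm3716 fell by 0.93 (edgeR adjusted p = 0.0022) at 6h, the largest such changes. Dubr fell by 0.35 (edgeR adjusted p = 0.00616). Against 6h, Snhg18 was at 14.3, 15.6 and 15.4 CPM at 24h, against 12.4, 12.0 and 11.02 CPM at 6h, a rise of 0.35 (edgeR adjusted p = 0.000144).

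**Figure D5:**
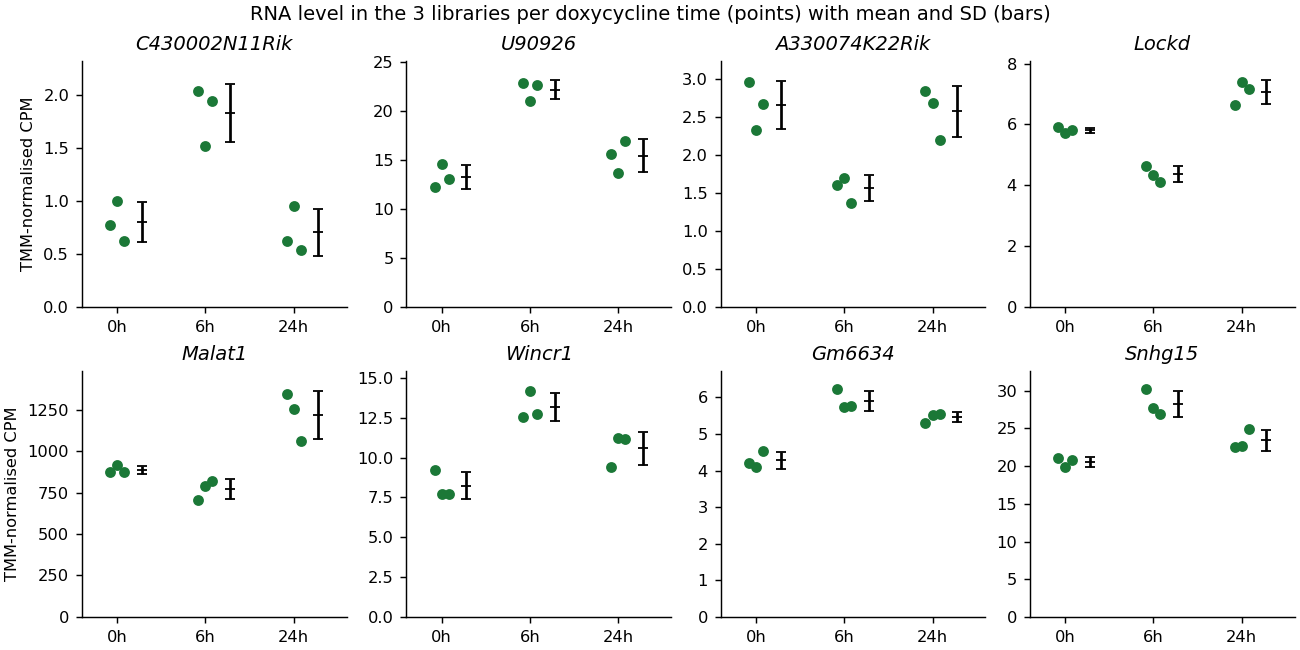
TMM-normalised CPM (y axis, from 0) at 0h, 6h and 24h of doxycycline (x axis) for 8 lncRNA genes. Points are single libraries and bars show the mean and SD of 3. C430002N11Rik and U90926 stand highest at 6h, A330074K22Rik and Lockd lowest at 6h, and Malat1 at 708 to 823 CPM at 6h, below 872 to 914 CPM at 0h and 1061 to 1347 CPM at 24h.

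Oip5os1 passed the test at 6h, as given above, whereas Mir100hg, Neat1 and Pvt1 did not. Mir100hg was at 143, 169 and 142 CPM at 6h, against 154, 147 and 151 CPM at 0h (log2 change 0.00, edgeR adjusted p = 0.955). Neat1 was at 115, 140 and 120 CPM, against 121, 115 and 126 CPM (0.05, edgeR adjusted p = 0.404), and Pvt1 at 20.4, 20.5 and 20.0 CPM, against 20.1, 17.7 and 18.8 CPM (0.10, edgeR adjusted p = 0.16). The 6h and 0h libraries overlap for each. Of the 9 expressed members with coverage of 50% or more at 5d, 4 were called at 6h, 3 higher and 1 lower, against 22 of the other 76, 14 higher and 8 lower, where 39% of all genes tested were called. Between 24h and 6h, 4 of these 9 and 24 of the other 76 were called, where 36.1% of all genes were.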

How the data were processed

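Members and gene lists were chosen with earlier results of these data known. Per the submitters' processing notes the tools were Bowtie 1.1.2, MACS2 2.1.0, SICER 1.1, STAR 2.5.2b and Cufflinks 2.2.1 on GRCm38/mm10. The authors deposited gene counts per RNA library, raw and in unstranded and stranded columns; column 4 was used, since it held 96.6% to 96.9% of the stranded counts, and 21.2% to 23.1% of counts named no gene and were left out. Each region in the authors' lists carries a score in whole numbers; what it is relative to is not given in the sources used here. Another deposited column is a running number and no measurement. Scores were used only to filter regions. No input file was used here.

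Regions were merged per library and the covered share of each gene body, start window and flank was computed on RefSeq GRCm38.p6 genes in Python 3.11.15 (pandas 2.3.3, numpy 2.4.6, scipy 1.17.1; figures with matplotlib 3.10.9). Members were matched to counts by symbol (1674) or synonym (14). Counts were tested in R 4.3.3 with edgeR 4.0.16 (filterByExpr, TMM, quasi-likelihood, all 9 libraries in 1 fit, no covariate), and the code was tested on simulated data. DESeq2 1.42.0, other size factors, no filter, unstranded counts, a replicate block, left-out libraries, other spans, region calls and scores were tried as alternatives. RNA members are named where called, at a mean of 0.5 CPM or more over the 9 libraries and with groups that do not overlap, up to 10 each way per comparison. Coverage members are named by highest CPM, by coverage pattern or as part of a list. Mir100hg, Neat1, Pvt1, Morrbid and Tug1 are given RNA or coverage values for their abundance or list.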

Additional observations from a re-analysis of the deposited data

Results flagged for a closer look

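Malat1 moved in opposite directions at the sampled times: it was lower at 6h than at 0h, by a log2 change of -0.20, and higher at 24h than at 0h, by 0.46. The difference itself, 24h against 6h, was 0.66 (SE 0.052, edgeR adjusted p = 4.02e-11), with all 3 libraries at 24h above all 3 at 6h. By replicate, the share of counts outside genes was 7.00%, 6.82% and 6.35% at 24h and 5.68%, 6.02% and 6.23% at 6h. Within each of these times Malat1 ranked the libraries in the same order. The part of library make-up in the Malat1 difference was not tested. The log2 difference stayed between 0.58 and 0.75 over the alternatives run, with its call in each. The fall at 6h lost its call without 6h replicate 1, at an adjusted p of 0.0536, and with DESeq2, at 0.0956.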

How the results depend on the processing

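The size of the shares of members covered at 80% or more depended on the region calls and spans, with 1 library behind each. In expressed members (main values 23.5% at 6h, 7.06% at 24h, 5.88% at 5d and 24.7% with flavopiridol) regions at or above the median score, or with a score of 2 or more, gave 14.1% at 6h, 2.35% at 24h and 14.1% with flavopiridol, and the first of these leaves 0h and 5d as they are, where the median score is 1. A span of 10 kb or more gave 13.3% at 6h and 13.3% with flavopiridol, a limit of 50% gave 36.5% and 40.0%, and leaving out chromosomes 8, 15 and 17 gave 1.43% at 5d. In low members (29.4%, 27.8%, 16.7% and 36.5%) a span of 10 kb or more gave 21.2% at 6h, a limit of 50% gave 46.0% at 6h, 41.3% at 24h, 30.2% at 5d and 55.6% with flavopiridol, median-score regions and those of score 2 or more both gave 15.9% at 24h, score 2 or more gave 10.3% at 5d, a distance of 5 kb or more from coding genes gave 36.8% at 24h, and wider windows and gaps gave 31.7% at 5d. In silent members (8.87%, 16.7%, 15.2% and 15.7%) both score settings gave 6.57% at 6h, 10.9% at 24h and 10.2% with flavopiridol, a score of 2 or more gave 8.53% at 5d, a span of 10 kb or more gave 5.92%, 13.1%, 11.8% and 11.04%, a limit of 50% gave 18.3%, 26.7%, 26.1% and 25.3%, the whole span gave 13.1% at 5d, wider windows and gaps gave 32.8% at 5d, and leaving out chromosomes 8, 15 and 17 gave 14.7% at 24h and 13.2% at 5d. Body minus flank at 6h was 1.75 points in expressed members and 9.50 points in low members with median-score regions (-1.94 and 2.73 otherwise). The mean of low members, lower by 4.30 points at 24h than at 6h, was instead higher by 1.18 points for spans of 10 kb or more and by 1.49 points at 5 kb or more from coding genes. The score, chromosome and numbering settings were chosen after seeing the data. The causes were not tested.

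For RNA, DESeq2 called 20 members at 6h against 0h (13 higher, 7 lower), 2 at 24h against 0h (2 higher) and 24 at 24h against 6h (10 higher), all 20 and both 2 among those of edgeR. Members 5 kb or more from coding genes, fewer by construction, gave 18 calls (13 higher, 5 lower) at 6h and 20 (11 higher, 9 lower) at 24h against 6h. Leaving out each library in turn gave 26 to 37 calls at 6h (14 to 24 higher, 9 to 13 lower), 1 to 6 at 24h (1 to 6 higher, 0 lower) and 25 to 39 at 24h against 6h (11 to 19 higher, 13 to 20 lower). Classes made without 1 of the 0h libraries put the 80% shares of expressed members at 23.5% to 24.1% at 6h, 6.02% to 7.23% at 24h, 4.82% to 6.02% at 5d and 24.1% to 25.3% with flavopiridol, those of low members at 27.5% to 29.8%, 25.2% to 29.8%, 15.3% to 19.1% and 36.4% to 38.9%, and those of silent members at 8.75% to 8.96%, 16.6% to 16.9%, 15.0% to 15.3% and 15.5% to 15.7%. Replicate numbers did not pair the libraries, with correlations of deviations of -0.018 to 0.039, and a replicate block gave 35, 4 and 36 calls. Of 685 values of named members' changes under alternatives, 90 lost their call and none changed sign.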

Other observations

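Members that hold microRNA hairpins of RefSeq numbered 35, of which 4 were expressed, 3 low, 12 silent and 16 without counts. E130102H24Rik, the silent host of Mir101a, was covered at 88.6%, 84.5%, 100% and 73.1% over 0h, 6h, 24h and 5d. Mir670hg, a low member at 0.337 CPM that holds Mir129-2 and Mir670, was covered at 37.7%, 72.9%, 62.9% and 50.0%. Gm13648, silent and holding Mir200a, Mir200b and Mir429, was at 0 in all 7 macroH2A2-GFP libraries, as was Mir205hg. The microRNAs of these last 2 hosts are known from epithelial cells.

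The start windows of U90926 and Wincr1, whose promoters hold 3 CG each, were at 0 for H2A.Z in wild-type primary cells, and those of Oip5os1 and Mir100hg, with 15 CG each, were at 100%. These 4 were picked as examples of unlike coverage and do not stand for their groups. Other expressed members covered at 50% or more at 5d went both ways. Their H2A.Z start windows were at 100% in Cerox1, A330074K22Rik and C030037D09Rik, at 89.45% in Gm2694, and at 0 in 3300005D01Rik and Gm12059.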
